A study of Homo sapiens with 6 samples.

Results

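ID genes and their neighbours in bone morphogenetic protein (BMP) signalling were followed in HCCLM3 cells that had received an antisense oligonucleotide (ASO) against SCARNA13 or a control ASO. The 10 genes were taken by symbol from the 58302 genes listed: the ligand BMP4, the decoy receptor BAMBI, the signal transducers SMAD1 and SMAD5, the inhibitory SMAD6 and SMAD7, and the targets ID1, ID2, ID3 and ID4. Each symbol was found once. They had been picked with this same contrast already known, so their differences between the groups are a description and support nothing beyond themselves.

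BMPs are secreted ligands that join a pair of receptor types at the cell surface. The receptors phosphorylate SMAD1 and SMAD5, which enter the nucleus with SMAD4 and switch on target genes, among them the ID genes and the inhibitory SMADs that close a negative feedback loop. ID proteins have a helix-loop-helix but no DNA-binding stretch, so they hold E proteins and other bHLH factors in dimers that cannot bind DNA. In hepatocytes, BMP signalling is best known for driving the iron hormone hepcidin.

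HCCLM3 is a human hepatocellular carcinoma line chosen for its high metastatic capacity, and an ASO is a short synthetic strand that pairs with an RNA to lower it. RNA sequencing was done on 3 SCARNA13 ASO libraries and 3 Control ASO libraries, all of the same line, and the comparison asked what follows when SCARNA13, a small Cajal body RNA, is targeted. The dose, the time after transfection and the sequence of either ASO were not given in the sources used here. No label ties the replicates to separate cultures, so p-values reflect no more than the scatter of these libraries, and part of that scatter may be technical.

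The libraries held 20457474 to 25173559 reads on genes, and the values are FPKM, a level per gene length and library size, as the authors deposited them. Replicate 3 stood apart in both groups: its log2 values correlated at 0.900 to 0.939 across genes with libraries of the other numbers, which correlated at 0.988 to 0.994 among themselves, and both replicate 3 libraries correlated at 0.980 with each other. The library sizes behind the deposited values were 0.633 (Control ASO) and 0.760 (SCARNA13 ASO) of the read total in replicate 3 and 1.21 to 1.24 elsewhere, so levels in replicate 3 depend on that scaling. Among the genes richest in G and C (62.8% to 86.4%), the median deviation from the mean over libraries was 0.76 on the log2 scale in SCARNA13 ASO replicate 3 and 1.05 in Control ASO replicate 3, and −0.50 to −0.39 in the other libraries. Results are therefore given with and without replicate 3, and libraries of the same number are set against each other as pairs. SCARNA13 itself had 2, 3 and 2 reads in SCARNA13 ASO libraries and 6, 5 and 2 reads in Control ASO libraries. Its level was 0.373 ± 0.10 FPKM with SCARNA13 ASO and 0.652 ± 0.0852 FPKM with Control ASO (SD, n = 3 each; exact two-sided permutation p = 0.1, the smallest that 3 against 3 allows). Both replicate 3 libraries had 2 reads each, so their difference in level rests on the library sizes behind the deposited values. Summed over libraries and scaled for those sizes, SCARNA13 reads stood at a ratio of 0.530 (95% interval 0.179 to 1.43, counting error only). The host gene SNHG10 averaged 3.67 ± 0.681 FPKM in SCARNA13 ASO libraries and 5.10 ± 1.10 FPKM in Control ASO libraries (SD, n = 3 each; exact permutation p = 0.1). Scaled by read totals instead, the groups overlapped for both SCARNA13 and SNHG10.

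The cell type label was set against 9 hepatocyte and liver cancer markers, and only SERPINA1 reached a mean of 1 FPKM over the 6 libraries. ALB, APOB and GPC3 had no read in any library, and the list summed to 1.53 to 2.88 FPKM in SCARNA13 ASO and 1.62 to 3.22 FPKM in Control ASO libraries. Simple epithelial markers, mostly KRT8, KRT18 and KRT19, summed to 2117 to 4146 FPKM with SCARNA13 ASO and 2180 to 5316 FPKM with Control ASO. Of these 4 markers, 3 reached a mean of 1 FPKM. EPCAM did not, at 0.0412 ± 0.0370 FPKM with SCARNA13 ASO and 0.0698 ± 0.0373 FPKM with Control ASO (SD, n = 3 each). Fibroblast markers summed to 0.324 to 0.563 FPKM with SCARNA13 ASO and 0.480 to 0.529 FPKM with Control ASO, with 0 of 5 at a mean of 1 FPKM. Endothelial markers summed to 0.0433 to 0.0703 FPKM with SCARNA13 ASO and 0.0554 to 0.106 FPKM with Control ASO, with KDR at 0. The part of other cell types in the results below was not tested. In bulk RNA, fewer cells that express a gene and less of its RNA per cell cannot be told apart.

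SMAD proteins read short DNA elements, so the 250 bases upstream of each RefSeq start (GRCh38.p14) were searched on both strands for GTCT (the SMAD box), GTCTAGAC (the palindrome of that box), GGCGCC (a GC-rich site read by SMAD1 and SMAD5) and CANNTG (the E-box that E proteins bind). The motifs were chosen with the expression values known, and a match is a description of letters, not a binding site. All 10 genes had a RefSeq window. Some windows lie inside exons that GENCODE 29 gives the same gene, wholly for ID3 and SMAD7 (250 bases each) and for 202 bases in ID2, 179 in BAMBI and 112 in SMAD1, since other transcripts start further upstream. The SMAD6 and ID1 windows reach 8 and 6 bases into such exons. Below are ID1, the most abundant target, SMAD6, the feedback inhibitor with the palindrome, and BMP4, the ligand with a GC-rich match. Each is read 5′ to 3′ on the strand of its gene. Capitals mark every SMAD box (GTCT, or AGAC where the box lies on the other strand) and every GGCGCC. The ID1 window is chr20:31605039-31605288 on the plus strand, the SMAD6 window chr15:66701986-66702235 on the plus strand and the BMP4 window chr14:53955051-53955300 on the minus strand.
ID1: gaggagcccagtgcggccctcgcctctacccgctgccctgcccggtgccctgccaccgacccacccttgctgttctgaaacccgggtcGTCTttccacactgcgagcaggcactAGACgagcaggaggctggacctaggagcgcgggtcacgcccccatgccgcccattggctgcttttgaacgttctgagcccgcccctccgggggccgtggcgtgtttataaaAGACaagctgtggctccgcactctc
SMAD6: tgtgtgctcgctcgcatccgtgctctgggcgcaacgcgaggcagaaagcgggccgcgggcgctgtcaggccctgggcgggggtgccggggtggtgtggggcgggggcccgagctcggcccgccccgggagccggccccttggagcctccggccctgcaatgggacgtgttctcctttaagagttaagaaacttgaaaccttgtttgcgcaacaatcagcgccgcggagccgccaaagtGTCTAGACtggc
BMP4: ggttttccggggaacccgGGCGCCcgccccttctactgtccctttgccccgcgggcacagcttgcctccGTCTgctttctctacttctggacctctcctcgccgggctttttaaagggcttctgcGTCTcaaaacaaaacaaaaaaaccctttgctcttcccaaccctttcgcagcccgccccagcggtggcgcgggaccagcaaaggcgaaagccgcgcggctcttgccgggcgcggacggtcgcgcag

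The SMAD box occurred in all 10 windows and in 77.6% of 27305 RefSeq windows of the same length. ID1 held 3, SMAD6 held 2, both inside the palindrome, and BMP4 held 2. SMAD7 and BAMBI held 4 each. The palindrome was found in SMAD6 alone among the 10, starting 12 bases before the start site, and in 48 of all windows (0.176%). The SMAD boxes counted in the SMAD6 window overlap that palindrome. GGCGCC was found in BMP4 and BAMBI, against 16.1% of all windows, with 1 match in BMP4 and 3 in BAMBI. An E-box was found in 5 of the 10 windows, those of ID2, ID4, SMAD1, SMAD5 and SMAD7, and in 62.2% of all windows.

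BMP4, the ligand that starts the signal, is on chromosome 14 (53949736 to 53958761, minus strand, GRCh38, ENSG00000125378). It was at 2.00, 1.99 and 1.67 FPKM in SCARNA13 ASO libraries and at 1.75, 1.67 and 2.16 FPKM in Control ASO libraries 1, 2 and 3. The groups overlapped, with SCARNA13 ASO higher in pairs 1 and 2 and lower in pair 3. The mean was 1.89 ± 0.187 FPKM with SCARNA13 ASO and 1.86 ± 0.261 FPKM with Control ASO (SD, n = 3 each). The log2 difference, taken throughout on log2(FPKM + 0.5), was 0.02 ± 0.17 (SE) in a limma fit with group as the only term, and 0.17 without replicate 3 of both groups (adjusted p = 0.211). A gene passed, and was called, at a Benjamini-Hochberg adjusted p under 0.05 over all tested genes. Summed over libraries and scaled for library size, reads stood at a ratio of 1.07 (95% interval 0.931 to 1.23, counting error only). BMP4 was the one BMP ligand with a mean of at least 1 FPKM: none of 13 others reached it, 4 of them had no read, and the highest, BMP8B, averaged 0.665 ± 0.0796 FPKM with SCARNA13 ASO and 0.696 ± 0.0690 FPKM with Control ASO (SD, n = 3 each).

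BAMBI, a receptor-like protein with no kinase domain that dampens BMP and TGF-beta signals, is on chromosome 10 (28677342 to 28682939, plus strand, ENSG00000095739). It was at 4.42, 5.41 and 3.25 FPKM in SCARNA13 ASO libraries and at 4.70, 4.25 and 4.92 FPKM in Control ASO libraries. The SCARNA13 ASO libraries spread to both sides of the controls. The means were 4.36 ± 1.08 FPKM with SCARNA13 ASO and 4.62 ± 0.340 FPKM with Control ASO (SD, n = 3 each), with a log2 difference of −0.10 ± 0.21 (SE, limma) over all libraries and 0.12 without replicate 3 (adjusted p = 0.495). The scaled read ratio was 0.998 (0.901 to 1.11).

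SMAD5 was the more abundant of the transducers. It is on chromosome 5 (136132845 to 136188747, plus strand, ENSG00000113658) and was at 2.49, 2.54 and 1.02 FPKM in SCARNA13 ASO libraries and at 2.38, 2.55 and 0.896 FPKM in Control ASO libraries. Within each pair the groups lay close together, while replicate 3 was low in both. The log2 difference was 0.06 ± 0.42 (SE, limma), and 0.02 ± 0.082 once a block for the replicate number and a correction for GC content were added (adjusted p = 0.869). Without replicate 3 of both groups it was 0.02 ± 0.073 (SE, limma; adjusted p = 0.857). Its scaled read ratio was 1.01 (0.935 to 1.09). SMAD1 is on chromosome 4 (145481194 to 145558079, plus strand, ENSG00000170365) and was at 0.596, 0.666 and 0.234 FPKM in SCARNA13 ASO libraries and at 0.608, 0.700 and 0.315 FPKM in Control ASO libraries. It was lower with SCARNA13 ASO in each pair (in 2 of 3 when scaled by read totals), with log2 ratios of −0.02, −0.04 and −0.15, but the groups overlapped. With a mean of 0.520 FPKM over the 6 libraries it did not reach the minimum of 1 FPKM for the fit, and its scaled read ratio was 0.926 (0.771 to 1.11). The kit does not mark strand, and antisense genes share 6.21% of the exonic bases of SMAD1 and 6.75% of those of SMAD5. SMAD1-AS1 had 0 reads, and SMAD5-AS1 had 1 read with SCARNA13 ASO and 0 with Control ASO.

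SMAD7, the inhibitory SMAD that blocks both BMP and TGF-beta receptors, had the largest percentage difference between means among the 10 genes. It is on chromosome 18 (48919853 to 48950711, minus strand, ENSG00000101665). SCARNA13 ASO libraries had 0.579, 0.712 and 0.853 FPKM, from 58, 75 and 49 reads, and Control ASO libraries had 1.70, 1.16 and 1.8 FPKM, from 191, 114 and 87 reads. Every SCARNA13 ASO library lay below every Control ASO library, as in 4.44% of all tested genes on the deposited scale. This also held for SMAD7 when scaled by read totals, where the share of all genes was not counted. The mean was 0.715 ± 0.137 FPKM with SCARNA13 ASO and 1.55 ± 0.345 FPKM with Control ASO (SD, n = 3 each), a difference of −54.0% relative to Control ASO, and the scaled read ratio was 0.457 (0.381 to 0.547). Its overall mean of 1.13 FPKM passed the filter only through the control group. The log2 difference of −0.75 ± 0.22 (SE, limma; adjusted p = 1.00) did not pass, nor did −0.68 ± 0.14 with the block and GC correction (adjusted p = 0.0588) or −0.74 ± 0.17 without replicate 3 (adjusted p = 0.0619). On recovered reads, limma-voom with the block gave −1.12 ± 0.21 (SE; adjusted p = 0.0184), a fit added after the data were seen. In limma with the block and without replicate 2 it was also called, at −0.90 (adjusted p = 0.0356). It was not called with the block alone (adjusted p = 0.0876), or with the block without replicate 1 (0.202) or replicate 3 (0.0847). With the block and GC correction it was not called without replicate 1, 2 or 3 (adjusted p = 0.167, 0.146 and 0.0743).

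SMAD6, the inhibitory SMAD that acts mainly on BMP receptors, is on chromosome 15 (66702228 to 66782848, plus strand, ENSG00000137834). It was at 0.211, 0.201 and 0.218 FPKM in SCARNA13 ASO libraries and at 0.445, 0.434 and 0.170 FPKM in Control ASO libraries. SCARNA13 ASO was lower in pairs 1 and 2 and higher in pair 3, with log2 ratios of −0.41, −0.41 and 0.10, so Control ASO replicate 3 alone made the groups overlap. The values rest on 49, 49 and 29 reads with SCARNA13 ASO and 116, 99 and 19 reads with Control ASO, and the mean of 0.280 FPKM over all libraries kept the gene out of the fit. The scaled read ratio over all libraries was 0.535 (0.427 to 0.666). With no filter on low values the log2 difference was −0.24 ± 0.18 (SE, limma; adjusted p = 1.00).

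**Figure D1:**
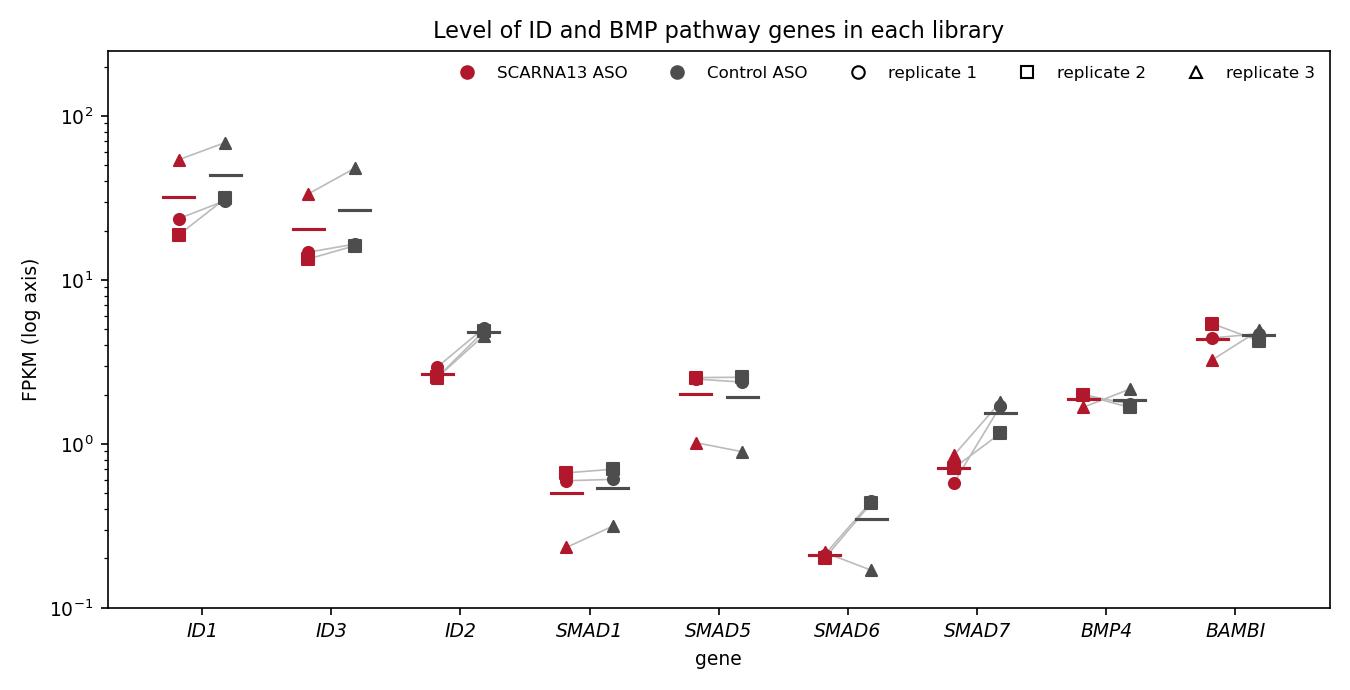
FPKM (log axis) of the 9 genes with reads in 3 SCARNA13 ASO (red) and 3 Control ASO (grey) libraries; shapes give the replicate number, grey lines join libraries of the same number and bars are group means. The groups separate completely for ID2 and SMAD7, while replicate 3 lies apart in both groups for ID1, ID3, SMAD1 and SMAD5 and in Control ASO for SMAD6.

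Among the ID genes, ID2 had the most even difference. It is on chromosome 2 (8678845 to 8684453, plus strand, ENSG00000115738), and its protein, like those of ID1 and ID3, sequesters E proteins. SCARNA13 ASO libraries had 2.94, 2.55 and 2.54 FPKM, from 176, 160 and 87 reads, and Control ASO libraries had 5.07, 4.85 and 4.57 FPKM, from 340, 285 and 132 reads. On the deposited scale the groups did not overlap, and the spread inside each was small. The mean was 2.67 ± 0.230 FPKM with SCARNA13 ASO and 4.83 ± 0.249 FPKM with Control ASO (SD, n = 3 each), a difference of −44.7% relative to Control ASO. The pairs differed by −0.70, −0.81 and −0.74 on the log2 scale. Scaled by read totals instead, SCARNA13 ASO libraries had 3.63, 3.11 and 1.93 FPKM and Control ASO libraries had 6.13, 5.91 and 2.90 FPKM, so replicate 3 was low in both and the groups overlapped, although SCARNA13 ASO was still lower in each pair. The limma difference was then −0.66 ± 0.37 (SE; adjusted p = 1.00).

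The fit with group alone gave ID2 −0.75 ± 0.15 (SE, limma) and an adjusted p of 1.00, and no gene of 10120 passed there, so the background was 0.0%. With the block and GC correction ID2 fell by 38.6% on the log2(FPKM + 0.5) scale (−0.70 ± 0.074, SE; adjusted p = 0.0360). Without replicate 3 of both groups it also fell (−0.75 ± 0.082, SE; adjusted p = 0.0238). The call under the block and GC correction was lost without pair 1 (adjusted p = 0.110) or pair 2 (adjusted p = 0.128) and held without pair 3 (adjusted p = 0.0299). Its antisense neighbour ID2-AS1, looked at after the values were seen, shares 38 of 2205 exonic bases with it (1.72%). ID2-AS1 was at 0.0894, 0.0170 and 0.0624 FPKM with SCARNA13 ASO and at 0.160, 0.164 and 0.297 FPKM with Control ASO, 8 reads against 27 in all (scaled ratio 0.292, 0.115 to 0.660).

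ID1 is on chromosome 20 (31605283 to 31606515, plus strand, ENSG00000125968) and is the target gene used most often as a readout of BMP signalling. It was at 23.7, 18.8 and 54.1 FPKM in SCARNA13 ASO libraries and at 30.5, 31.4 and 68.9 FPKM in Control ASO libraries. SCARNA13 ASO was lower in each pair, with log2 ratios of −0.36, −0.72 and −0.35, yet the groups overlapped since replicate 3 was high in both. The mean was 32.2 ± 19.1 FPKM with SCARNA13 ASO and 43.6 ± 21.9 FPKM with Control ASO (SD, n = 3 each), a difference of −26.1% relative to Control ASO. The limma difference was −0.47 ± 0.52 (SE; adjusted p = 1.00) with group alone and −0.41 ± 0.12 (SE; adjusted p = 0.0969) with the block and GC correction. Without replicate 3 of both groups and with no block ID1 fell (−0.54 ± 0.11, SE; adjusted p = 0.0471), and that call was lost when the block was added (adjusted p = 0.0564, and 0.0569 with GC correction). In the added limma-voom fit with the block it fell as well (−0.48 ± 0.097, SE; adjusted p = 0.0210).

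ID3 is on chromosome 1 (23557918 to 23559794, minus strand, ENSG00000117318). It was at 14.8, 13.4 and 33.4 FPKM in SCARNA13 ASO libraries and at 16.5, 16.2 and 48.0 FPKM in Control ASO libraries. SCARNA13 ASO was lower in each pair, with log2 ratios of −0.16, −0.26 and −0.52 and groups that overlapped. The mean was 20.5 ± 11.2 FPKM with SCARNA13 ASO and 26.9 ± 18.3 FPKM with Control ASO (SD, n = 3 each). ID3 did not pass with group alone (−0.31 ± 0.55, SE, limma), with the block and GC correction (−0.25 ± 0.059, SE; adjusted p = 0.0709), without replicate 3 (−0.21 ± 0.061, SE; adjusted p = 0.0945) or in limma-voom with the block (adjusted p = 0.0579). Without Control ASO replicate 3 alone its difference was 0.20. ID4, on chromosome 6 (19837386 to 19840684, plus strand, ENSG00000172201), had no read in any library, which allows up to 0.0449 to 0.0823 FPKM per SCARNA13 ASO library and 0.0421 to 0.0978 FPKM per Control ASO library (the level of 3 reads).

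**Figure D2:**
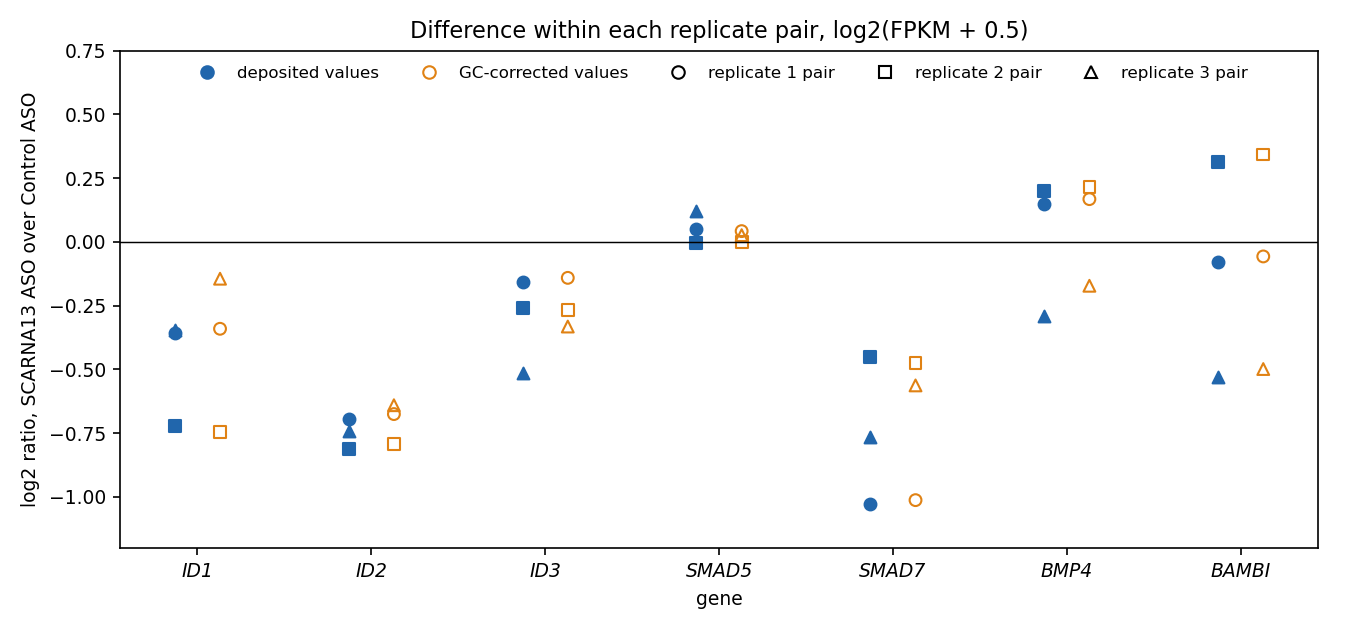
Log2 ratio of SCARNA13 ASO over Control ASO (FPKM + 0.5) within each replicate pair for the 7 genes that passed the filter, from deposited values (filled) and after GC correction (open); shapes give the pair. All 3 pairs lie below 0 for ID1, ID2, ID3 and SMAD7, while BMP4, BAMBI and SMAD5 have pairs on both sides in the deposited values.

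Of the 10 genes, 7 passed the filter and 3 (ID4, SMAD1 and SMAD6) did not. Of those 7, the groups did not overlap on the deposited scale for ID2 and SMAD7, both lower with SCARNA13 ASO. On that scale 4.44% of all tested genes had every SCARNA13 ASO library below every Control ASO library. Scaled by read totals, the groups did not overlap for SMAD7 alone, and the share of all genes was not counted. SCARNA13 ASO was lower in all 3 pairs for 4 of the 7 (ID1, ID2, ID3 and SMAD7; 29.6% of all tested genes) and higher in all 3 pairs for 0 of the 7 (23.9% of all tested genes). The fit with the block and GC correction called 1 of the 7 lower, ID2, and 0 higher, where it called 2.15% of all genes lower and 3.06% higher. Without replicate 3 and with no block, 2 of the 7 were called lower, ID1 and ID2, and 0 higher, where 4.59% of all genes were called lower and 4.52% higher. In limma-voom with the block 3 of the 7 were called lower, ID1, ID2 and SMAD7, where 10.1% of all genes were called, 5.19% lower and 4.92% higher. The median log2 difference of the 7 was −0.31 with group alone, beside −0.02 over all genes, and −0.25 with the block and GC correction, beside 0.00 over all genes. Since the genes were chosen on this contrast, nothing is read from these counts.

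The genes differed among themselves in how replicate 3 deviated on the deposited scale. Replicate 3 minus the mean of replicates 1 and 2, on the log2 scale, was 1.34 with SCARNA13 ASO and 1.14 with Control ASO for ID1, and 1.22 with SCARNA13 ASO and 1.53 with Control ASO for ID3. For SMAD5 it was −0.99 with SCARNA13 ASO and −1.09 with Control ASO, and for ID2 −0.09 with SCARNA13 ASO and −0.11 with Control ASO. ID1 and ID3, at 58.6% and 57.2% GC, were thus high in replicate 3, SMAD5 and SMAD1, at 36.9% and 39.2% GC, were low, and ID2, at 53.3% GC, lay near 0. BAMBI, at 51.0% GC, had −0.52 with SCARNA13 ASO and 0.12 with Control ASO. BMP4, at 54.0% GC, had −0.20 with SCARNA13 ASO and 0.27 with Control ASO. For BAMBI and BMP4 the sign thus differed between the groups. Scaled by read totals, the same difference was 0.65 with SCARNA13 ASO and 0.22 with Control ASO for ID1, and −0.67 with SCARNA13 ASO and −0.94 with Control ASO for ID2, so where 0 lies depends on the scaling. SMAD7, at 58.7% GC, was shifted less than ID1, with 0.24 with SCARNA13 ASO and 0.27 with Control ASO. SMAD6, at 58.9% GC, had 0.02 with SCARNA13 ASO and −0.49 with Control ASO. The added 0.5 shrinks shifts at levels as low as those of SMAD6, so the size of its shift cannot be set against that of ID1. In Control ASO libraries SMAD6 was at 0.445 and 0.434 FPKM in replicates 1 and 2 and at 0.170 FPKM in replicate 3. The part of GC content in any single gene was not tested.

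**Figure D3:**
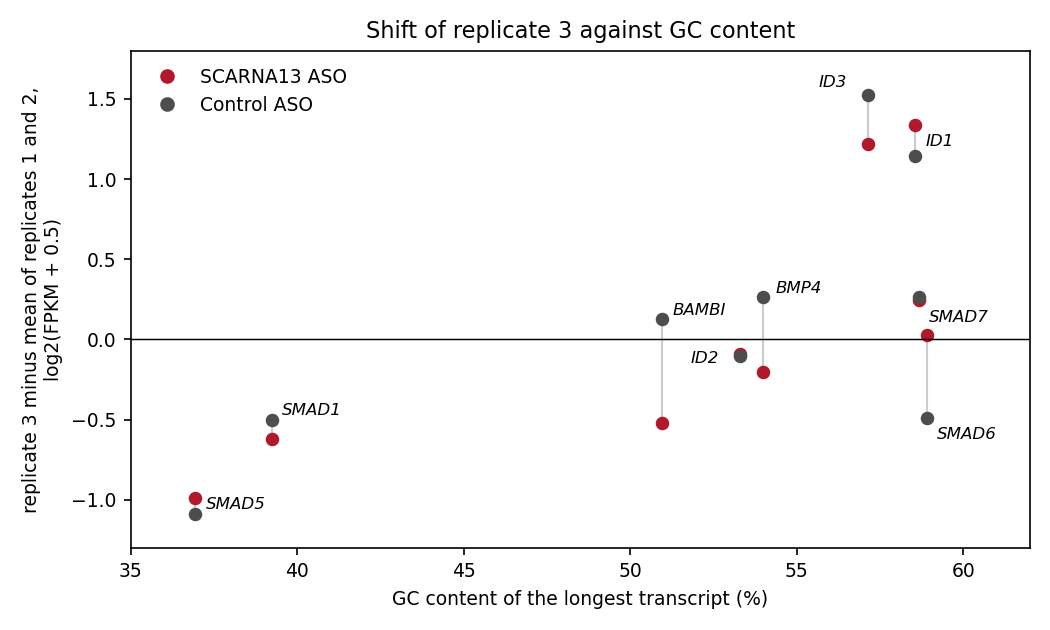
Replicate 3 minus the mean of replicates 1 and 2 (log2 of FPKM + 0.5) against the GC content of the transcript (percent), 1 point per gene and group. ID1 and ID3 lie above 1 in both groups, SMAD5 lies near −1 in both, and ID2 lies close to 0.

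In order of level, SCARNA13 ASO libraries had ID1, ID3, BAMBI, ID2, SMAD5, BMP4, SMAD7, SMAD1 and SMAD6, and ID4 last with no read. Control ASO libraries had ID2 above BAMBI and otherwise the same order. ID1 was above ID3 in each library, although the ranges of both genes over the libraries overlapped. SMAD5 and BMP4 overlapped in both groups, and BMP4 was the higher in replicate 3. ID2 and BAMBI overlapped in Control ASO libraries but not in SCARNA13 ASO libraries, where BAMBI was the higher in each.

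Other genes of the pathway were counted in 7 lists of 78 genes, of which 31 passed the filter, 47 did not and 18 of those had no read. In the fit with group alone 0 of the 31 passed. With the block and GC correction 0 rose, 1 fell and 30 did not pass, where 5.21% of all genes passed. Without replicate 3 and with no block, 3 rose (RGMB, FSTL1 and ALPL) and 1 fell (SMURF1), where 9.11% of all genes passed. Adding the block there lost RGMB (adjusted p = 0.0663) and ALPL (adjusted p = 0.0590) and kept FSTL1 (adjusted p = 0.0396) and SMURF1 (adjusted p = 0.0485). That fit called 629 of all 10120 genes. In the added limma-voom fit with the block, 4 rose (RGMB, FSTL1, ALPL and TCF12) and 2 fell (SMURF1 and DLX2), where 4.92% of all genes were called higher and 5.19% lower. ALPL, the bone and liver alkaline phosphatase, was named after its values were seen and differed by 0.34 ± 0.062 without replicate 3 and with no block (SE, limma; adjusted p = 0.0408). The gene that fell with the block and GC correction was DLX2, a homeobox gene induced by BMPs. DLX2 averaged 0.929 ± 0.280 FPKM with SCARNA13 ASO and 2.20 ± 1.18 FPKM with Control ASO (SD, n = 3 each), with a log2 difference of −0.78 ± 0.12 (SE, limma; adjusted p = 0.0402). It passed the filter only through the control group, and its call was lost without pair 1 (adjusted p = 0.119), pair 2 (adjusted p = 0.118) or pair 3 (adjusted p = 0.0516).

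Of 11 receptors and co-receptors, 4 were tested, 0 passed with the block and GC correction, and their median log2 difference was 0.10. RGMB, a co-receptor for BMPs, averaged 10.6 ± 1.23 FPKM with SCARNA13 ASO and 8.40 ± 0.530 FPKM with Control ASO (SD, n = 3 each; 0.32 ± 0.062, SE, limma adjusted p = 0.0525, and 0.0485 without replicate 3 and with no block). ACVR1, a type I receptor, averaged 2.54 ± 0.202 FPKM with SCARNA13 ASO and 2.24 ± 0.822 FPKM with Control ASO (SD, n = 3 each; limma adjusted p = 0.451). Of 15 extracellular antagonists, 8 were tested and 0 passed, with a median of 0.15. FSTL1, a secreted follistatin-like protein, averaged 14.9 ± 2.87 FPKM with SCARNA13 ASO and 10.7 ± 3.86 FPKM with Control ASO (SD, n = 3 each; 0.51 ± 0.099, SE, limma adjusted p = 0.0542, and 0.0257 without replicate 3). NOG, the secreted trap for BMP4, averaged 2.15 ± 0.444 FPKM with SCARNA13 ASO and 3.29 ± 0.912 FPKM with Control ASO (SD, n = 3 each; −0.43 ± 0.095, SE, limma adjusted p = 0.0642).

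Inside the cell, 9 of 12 partners and brakes were tested and 0 passed, with a median of −0.07. SMURF1, the ubiquitin ligase that degrades SMAD1 and SMAD5, averaged 6.27 ± 0.429 FPKM with SCARNA13 ASO and 8.43 ± 0.300 FPKM with Control ASO (SD, n = 3 each). Its groups did not overlap on the deposited scale, where 4.44% of all tested genes had every SCARNA13 ASO library below every Control ASO library. Scaled by read totals, the groups overlapped. The SMURF1 difference of −0.37 ± 0.071 (SE, limma) had an adjusted p of 0.0534 with the block and GC correction and 0.0304 without replicate 3. NEDD4L, another ubiquitin ligase of SMADs, averaged 7.15 ± 0.231 FPKM with SCARNA13 ASO and 6.09 ± 0.806 FPKM with Control ASO (SD, n = 3 each; limma adjusted p = 0.116). Of 12 other BMP target genes, 6 were tested, with a median of −0.16, and DLX2 alone passed with the block and GC correction. Of the E proteins that ID proteins hold, TCF3 (0.24 ± 0.095, SE; limma adjusted p = 0.167) and TCF12 (0.26 ± 0.11, SE; adjusted p = 0.20) did not pass with the block and GC correction, TCF12 passed in limma-voom with the block (adjusted p = 0.0465), and TCF4 was too low to be tested. Of 12 other bHLH factors 7 had no read, and the pair that was tested, TWIST1 (0.35 ± 0.17, SE; limma adjusted p = 0.229) and TWIST2 (0.10 ± 0.078, SE; adjusted p = 0.408), did not pass.

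**Figure D4:**
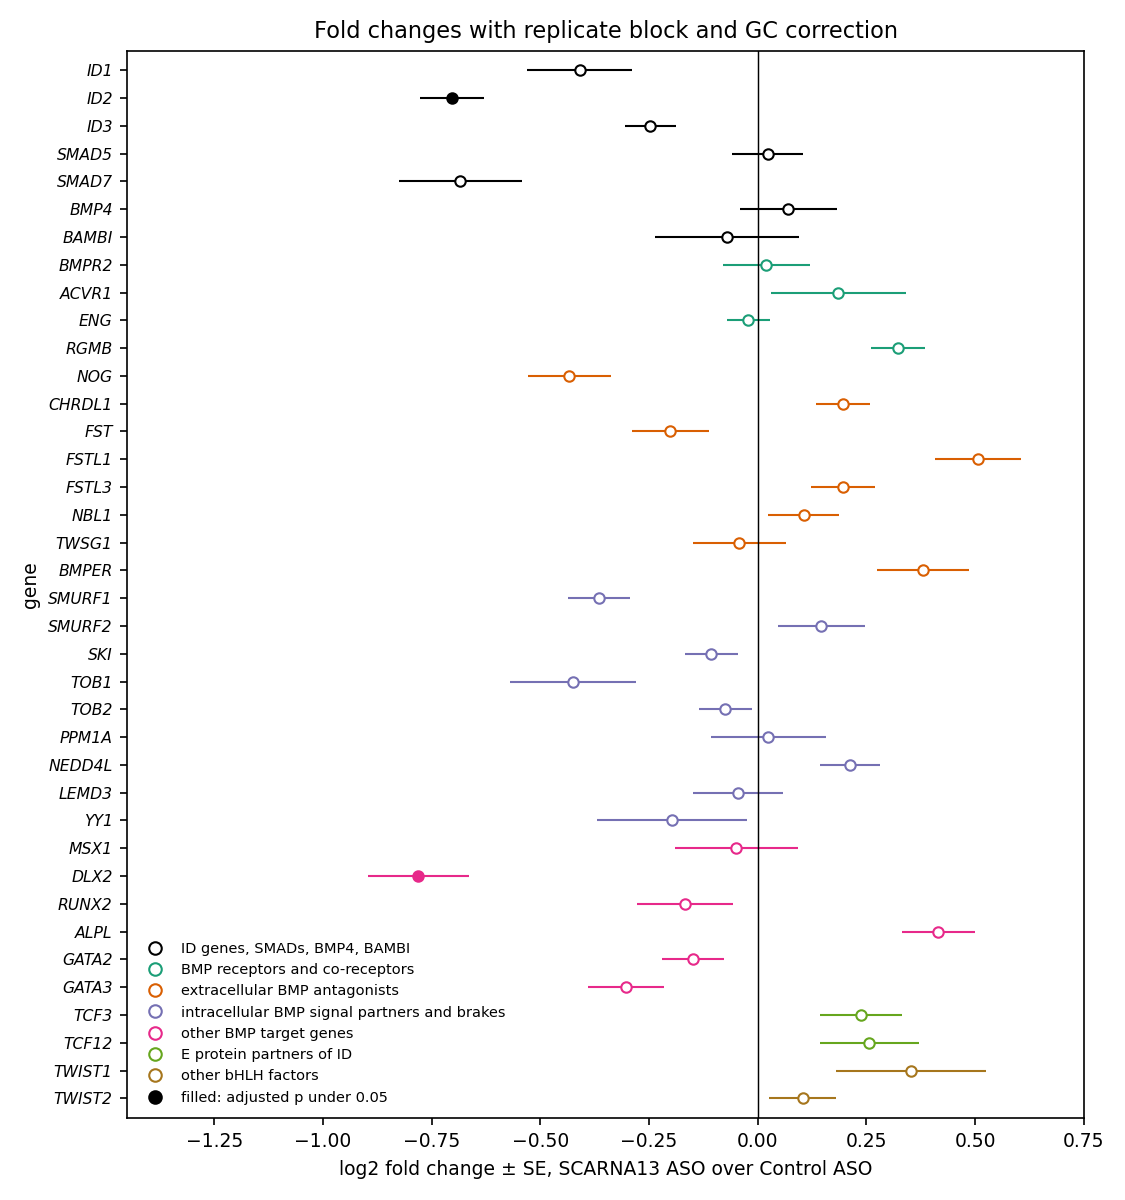
Log2 fold change, SCARNA13 ASO over Control ASO, of the 7 tested genes of the main set (black, chosen on this contrast) and the 31 tested genes of the other lists (colours), from the limma fit with replicate block and GC correction; bars are standard errors and filled points passed at an adjusted p under 0.05. The filled points are ID2 (−0.70) and DLX2 (−0.78).

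The genes whose profile over the 6 libraries was most like each ID gene were sought among 8881 protein-coding genes, by the root mean square difference of centred log2(FPKM + 0.5) values. For ID1 these were LIF (0.0924), CMTM7 (0.0998) and KIAA1755 (0.117). For ID2 they were IRAK2 (0.139), MARS2 (0.148) and PIGW (0.154). For ID3 they were GAPDH (0.0261), TWF2 (0.0288) and P2RY11 (0.0309). GAPDH, a glycolytic enzyme, was at 2266, 2064 and 4897 FPKM in SCARNA13 ASO libraries and at 2408, 2385 and 7104 FPKM in Control ASO libraries, so what it shared with ID3 was mainly a high replicate 3. IRAK2, a kinase of interleukin-1 receptor signalling, averaged 1.65 ± 0.0815 FPKM with SCARNA13 ASO and 2.63 ± 0.196 FPKM with Control ASO (SD, n = 3 each). Its groups did not overlap on the deposited scale, but it was picked for likeness to ID2, so nothing is read from that.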

How the data were processed

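Libraries were prepared from total RNA with a TruSeq RNA kit (per the labels' protocols), which is generally known to select polyadenylated RNA, and so to undersample SCARNA13, and to leave strand unmarked. The authors deposited 1 FPKM value per gene and library; neither the counting tool nor the scaling was given in the sources used here. TopHat2 2.0.9, Bowtie2 2.0.6 and hg19 are named in the submitters' processing notes, but 97.6% of the identifiers shared with GENCODE 29 had its GRCh38 start and end, so coordinates are GRCh38. FPKM times gene length gave whole reads for 100% of values (tolerance 0.01). Scaled read ratios use the library sizes that these steps imply, 13089653 to 30416028, with 95% intervals for counting error alone.

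Sample titles gave the groups and replicate numbers. The test was limma-trend 3.58.1 (R 4.3.3, two-sided) on log2(FPKM + 0.5), restricted to genes averaging 1 FPKM or more, with group as the only term, and Benjamini-Hochberg adjustment over all 10120 genes (threshold 0.05). This scale understates the change of low genes. Deviations from the group means correlated at 0.835, 0.785 and 0.915 within same-numbered pairs, so the numbers were taken as pairs, though libraries 1 and 2 correlated as well when crossed (0.805 and 0.814). The block fit with GC correction subtracted a loess trend (span 0.5) on transcript GC, for 10104 genes. Simulated data were used to test the fits with group alone, with the block, with the block and GC correction, and limma-voom without the block. The limma-voom fit with the block and the fits that leave out libraries were not tested in that way. The simulation gave libraries of the same number a shared profile. The leukocyte marker list is not reported here.

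The 10 genes, the lists and the alternatives were chosen with earlier results of these data known. Named were the 10, SCARNA13, SNHG10, list genes that passed or else the 2 with the smallest p in the block and GC fit, and the 3 protein-coding genes most like ID1, ID2 and ID3.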

Additional observations from a re-analysis of the deposited data

How the results depend on the processing

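Of 29 named genes with a fit, 18 kept their direction in all 22 alternatives, among them ID1, ID2 and SMAD7. Most of these genes were named with this contrast known, for a small p or for likeness. The alternatives reuse the same 6 libraries, and some give the same estimate by construction. Nothing is therefore read from that count. The log2 difference lay between −0.92 and −0.094 for ID1, between −0.86 and −0.66 for ID2 and between −1.12 and −0.52 for SMAD7. The fit with group alone called 0 genes, with 173 at an unadjusted p under 0.05. The replicate block alone called 0 (2598 unadjusted), the block with GC correction 526, limma-voom 0 (162 unadjusted) and limma-voom with the block 1023. Leaving out replicates gave 0 to 922 genes: each single library 0, replicate 3 of both groups 922. Leaving out replicate 1, 2 or 3 gave 51, 268 and 629 with the block, and 14, 0 and 763 with the block and GC correction. Why these counts differ was not tested. The limma-voom fits were chosen after seeing the data, and the planned count models were not run.

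ID3 turned to 0.20 without Control ASO replicate 3. SMAD5 turned to −0.31 without Control ASO replicate 3, −0.10 without SCARNA13 ASO replicate 1 and −0.11 without SCARNA13 ASO replicate 2. BMP4 turned to −0.012, −0.038, −0.015 and −0.014 without Control ASO replicates 1 and 2 and SCARNA13 ASO replicates 1 and 2, to −0.046 and −0.071 with the block without replicates 1 and 2, and to −0.0020 with the block and GC correction without replicate 2. BAMBI turned to 0.076 without SCARNA13 ASO replicate 3, and to 0.12, 0.12 and 0.14 without both, with no block, the block, and the block and GC correction. ACVR1 turned to −0.066 without Control ASO replicate 3, and to −0.026, −0.026 and −0.0024 in those same 3 fits. TWIST2 turned to −0.031, −0.027 and −0.089 without Control ASO replicates 1 and 2 and SCARNA13 ASO replicate 3. Without Control ASO replicate 3, CMTM7, GAPDH, TWF2 and P2RY11, named for likeness, turned to 0.025, 0.24, 0.24 and 0.21. ALPL turned to −0.00026 without SCARNA13 ASO replicate 3. Over single libraries left out, the other end of the range was −0.72 for ID3, 0.39 for SMAD5, 0.11 for BMP4, −0.25 for BAMBI, 0.39 for ACVR1, 0.17 for TWIST2, −0.74 for CMTM7, −0.67 for GAPDH, −0.70 for TWF2, −0.74 for P2RY11 and 0.68 for ALPL. The cause was not tested. Genes under 1 FPKM, SMAD1 and SMAD6 among them, were kept out by their level per gene length, and not all had few reads. SMAD1 had 235 reads with SCARNA13 ASO and 250 with Control ASO, and SMAD6 had 127 and 234. SMAD7, which was tested, had 182 and 392. Where reads were few, counting error limits the values.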
